A study of Mus musculus with 48 samples.

Results

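Brown adipose tissue from mice labelled as deleted for angiotensinogen in hepatocytes (hepAGT-/-) was compared between thermoneutral and room-temperature housing, over all genes. All libraries titled hepAGT-/- and brown adipose tissue were taken, 8 of the 48 samples of the series: 4 from mice housed at 30 °C (thermoneutrality, TN) and 4 from mice housed at 20 to 22 °C (room temperature, RT). All were male littermates of the hepAGT+/+ and hepAGT-/- cross, kept on a 14:10-hour light and dark cycle, and all had eaten the Western diet TD.88137, with 21% milk fat and 0.2% cholesterol, over 12 weeks. No group ate another diet, so every difference below is between 2 temperatures on that diet. The same tissue of hepAGT+/+ mice, 4 at each temperature, is used for comparison. The series asks how a deletion of Agt in hepatocytes bears on adiposity and fatty liver at thermoneutrality. Ages, and the means by which Agt was deleted, are not given in the sources used here. The deletion is named for hepatocytes, and no source used here describes one in brown fat.

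Brown fat burns fatty acids and glucose for heat. In the cold, noradrenaline from sympathetic nerves acts on beta-adrenergic receptors of brown adipocytes, cyclic AMP rises, lipid droplets are broken down, and the uncoupling protein Ucp1 lets protons return into the mitochondrial matrix without making ATP. A mouse at ordinary room temperature is mildly cold, and its brown fat both burns lipid and makes new fatty acids; at thermoneutrality the drive falls and the tissue fills with lipid and takes on a look nearer to white fat.

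Library totals were 28.5 to 34.3 M counts at RT and 29.7 to 33.3 M at TN. The deletion can be checked only in liver, where Agt was at 125 to 207 CPM (counts scaled to a common library size, the usual CPM unit) in the 8 hepAGT-/- libraries and at 276 to 504 CPM in the 8 hepAGT+/+ libraries: Agt was lower without overlap but was not absent. In brown fat of hepAGT-/- mice Agt was at 4.28, 0.545, 0.0734 and 0.133 CPM in RT replicates 9, 10, 14 and 19 and at 8.15, 0.0551, 0.725 and 2.27 CPM in TN replicates 2, 3, 4 and 5, and this order of replicates is kept throughout. The tissue label was met by its markers: all 8 brown adipocyte markers were detected in both groups, and their summed level was 8295 to 12524 CPM at RT and 3657 to 6338 CPM at TN, while 6 markers of adipocytes of any kind summed to 10755 to 11221 CPM at RT and 10927 to 15113 CPM at TN. In bulk tissue, fewer cells of a type and less RNA per cell cannot be told apart.

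Other cell types were present unevenly. The 12 skeletal muscle markers summed to 268, 2.51, 4190 and 1373 CPM in the RT libraries and to 8409, 2.02, 2.43 and 1256 CPM in the TN libraries, so that each group held libraries with and without muscle transcripts. The 10 hepatocyte markers, Alb among them, summed to 24.7 to 956 CPM at RT and to 3828, 122, 325 and 2116 CPM at TN, highest in TN replicates 2 and 5. The 8 macrophage markers summed to 69.8 to 84.7 CPM at RT and 226 to 345 CPM at TN, and the 6 fibroblast markers to 173 to 258 CPM at RT and 591 to 1046 CPM at TN, both without overlap. For the 8 neutrophil and red blood cell markers the sum was 203 to 339 CPM at RT, 44.4 to 91.5 CPM in 3 TN libraries and 826 CPM in TN replicate 2. The epidermal keratins Krt5, Krt14 and Krt15 and the nerve marker Th had no counts in any of the 8 libraries, while Krt10 had 1.03 to 3.77 CPM. The white-fat markers Hoxc9 and Tcf21 had counts only in RT replicate 10, at 0.242 and 0.0606 CPM. Because TN replicates 2 and 5 carried the most hepatocyte transcripts, counts of genes are also given without both, a choice made after seeing the data that leaves 2 TN libraries. That set called 1101 genes in all, 540 higher and 561 lower, against 2735 in the main fit (1198 higher, 1537 lower). Counts for a gene group in that set are to be read beside this fall over all genes.

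**Figure D1:**
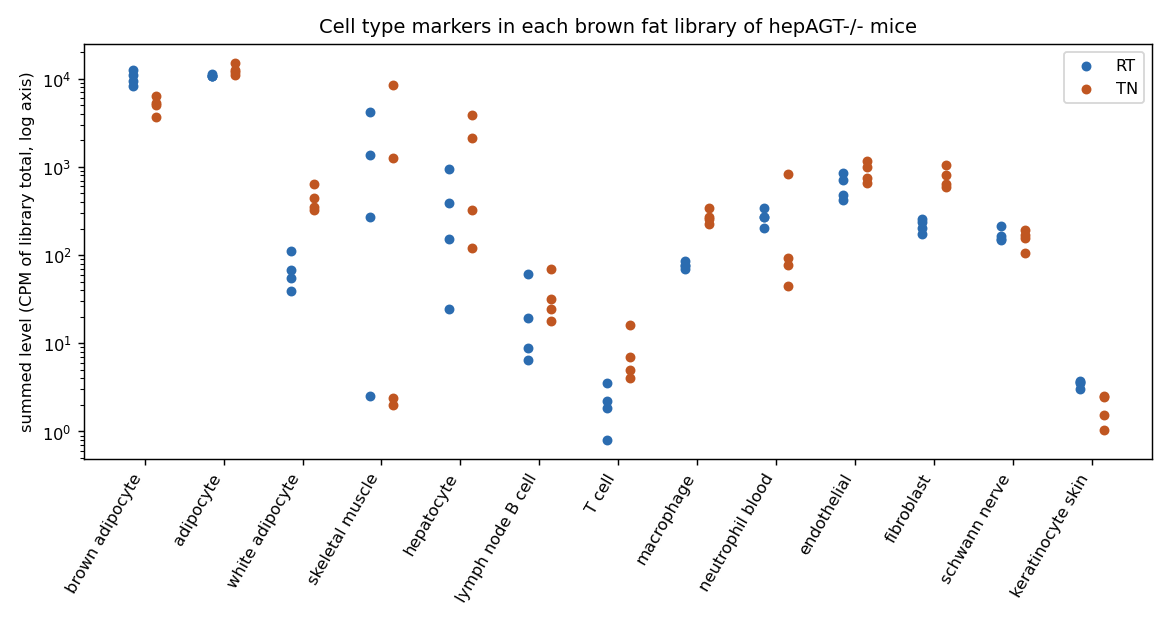
Summed level of 13 cell type marker lists (CPM of the library total, log axis) in each of the 8 hepAGT-/- brown fat libraries, 1 point per library, RT in blue and TN in orange. The sums of macrophage, fibroblast and white adipocyte markers lay higher in all TN libraries and that of brown adipocyte markers lower. Sums of skeletal muscle and hepatocyte markers spread widely within both groups. Single members could differ from their sum: the white adipocyte markers Retn and Hoxc8, the fibroblast marker Lum and the brown adipocyte markers Ppargc1a, Prdm16 and Ebf2 were not called.

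Of 18032 genes tested with edgeR's quasi-likelihood test, 2735 (15.2%) were called at a Benjamini-Hochberg adjusted p under 0.05, 1198 higher at TN (6.64%) and 1537 lower (8.52%). Called genes at least 2-fold apart numbered 743 higher (4.12%) and 559 lower (3.1%). Before adjustment 5035 genes had a p under 0.05, against 902 expected by chance. The 2 groups of libraries did not overlap for 3839 genes (21.3%), 1720 with TN above RT (9.54%) and 2119 with TN below (11.8%), and 2418 of the 2735 called genes were among them. The 10 most abundant genes took 31.9 to 40.2% of counts at RT and 27.7 to 32.4% at TN, overlapping.

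The balance of directions depends on how libraries are scaled. The main values use TMM (trimmed mean of M values), which sets the scale from the bulk of genes and here gave factors of 0.858 to 0.957 at RT and 1.15 to 1.21 at TN. With plain library totals instead, a choice added after seeing the data, 4120 genes were called (22.8%), 3548 higher (19.7%) and 572 lower (3.17%), and the median change of all genes was 0.42 against 0.04 on the log2 scale. Both scalings called 1770 genes, 1198 higher and 572 lower, and 0 genes were called in opposite directions. Counts for gene groups are therefore also given with library totals where they differ.

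**Figure D2:**
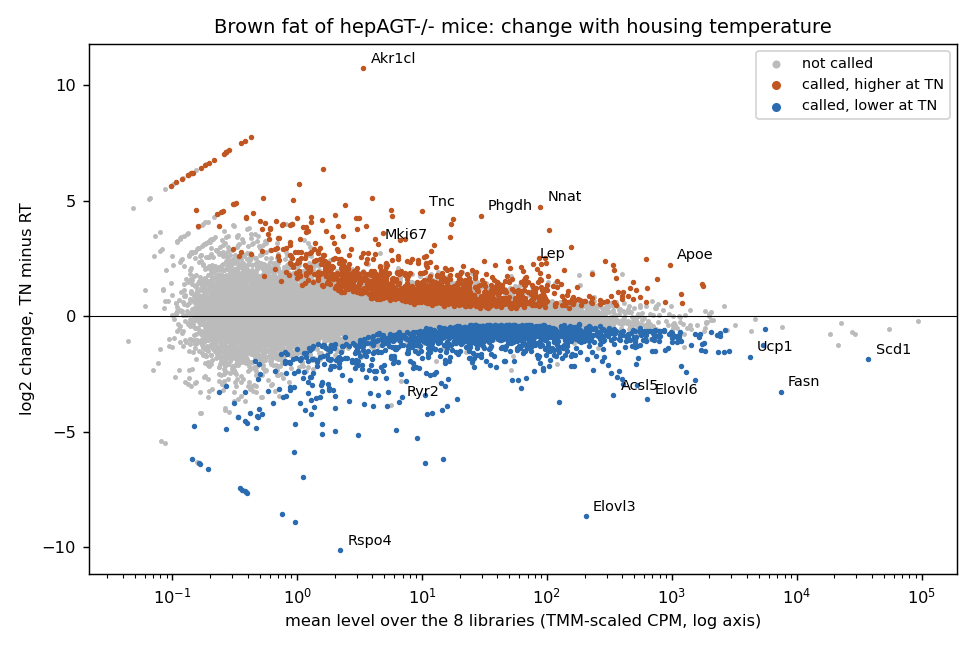
Log2 change (TN minus RT) against mean level over the 8 hepAGT-/- libraries (TMM-scaled CPM, log axis), 1 point per gene tested. Called genes are coloured, 1198 higher in orange and 1537 lower in blue; Scd1, Fasn and Ucp1 were abundant genes that fell, and the rows of points at the upper and lower left are genes with no counts in 1 group.

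Genes of heat production were lower at TN. Of 30 thermogenesis genes tested, 13 were called lower (43.3%, against 8.52% of all genes) and 0 higher, with a median log2 change of -0.78. Ucp1 (ENSMUSG00000031710), the uncoupling protein, was at 6900.4, 8751, 5608 and 4798 CPM in the RT libraries and 1110.2, 2820.1, 1865 and 1923 CPM in the TN libraries. Every TN value was below every RT value, a 3.38-fold lower mean (-1.76 ± 0.39 SE in log2, adjusted p = 0.00568). Elovl3 (ENSMUSG00000038754), a fatty acid elongase known from cold-activated brown fat, was at 319, 666, 319.7 and 331 CPM at RT and at 1.95, 0, 0.558 and 1.51 CPM at TN, where replicate 3 had no count (-8.66 ± 1.06 SE in log2, adjusted p = 0.000215). Letm1, an ion exchanger of the inner mitochondrial membrane, had 411, 467, 408 and 458 CPM against 77.9, 167, 103 and 112 CPM, a tight split of the groups (-1.92 ± 0.21 SE in log2, adjusted p = 9.07e-06). Cidea, a lipid droplet protein typical of brown adipocytes, went from 2125 ± 176 to 1234 ± 304 CPM (SD, n = 4; log2 change -0.78, adjusted p = 0.0193); that call was lost with library totals and without TN replicate 2 or 4 (0.0848, 0.0589 and 0.0671; over all its settings 0.00258 to 0.148).

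The other called members were Acot11 (-2.71), a fatty acyl-CoA thioesterase, Bmp8b (-3.20), a secreted factor of brown fat, Letmd1 (-1.35), a mitochondrial protein, the lipid receptor Ffar4 (-1.35), the respiratory subunits Cox7a1 (-1.11) and Cox8b (-1.07), Otop1 (-1.07), Clstn3 (-0.93) and the receptor Adrb3 (-0.78), all as log2 changes. The transcription regulators of the brown program were not called. Ppargc1a, the coactivator of mitochondrial biogenesis, had 32.4 to 54.0 CPM at RT and 18.0 to 45.0 CPM at TN (log2 change -0.53, adjusted p = 0.381). Prdm16, a determinant of brown fat identity, had 24.1 to 32.0 CPM and 19.6 to 33.0 CPM (log2 change -0.08, adjusted p = 0.88; 0.30 with library totals), and Ebf2 had a log2 change of 0.10. Dio2, which activates thyroid hormone within brown fat, was at 73.0, 105, 128 and 38.3 CPM at RT and 4.02, 32.5, 20.6 and 11.1 CPM at TN. Its groups did not overlap and its mean was 5.06-fold lower, but its spread was wide and it was not called (log2 change -2.34, SE 0.90, adjusted p = 0.105). With library totals 8 thermogenesis genes were called lower and 1 higher, where 3.17% of all genes were lower and 19.7% higher. Without TN replicates 2 and 5, 6 thermogenesis genes were lower. In that smaller set Ucp1 missed the threshold (log2 change -1.45, adjusted p = 0.101; over all its settings 0.00107 to 0.101).

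Of 27 adrenergic signalling genes 5 were called higher (18.5%, against 6.64% of all genes) and 3 lower (11.1%, near the 8.52% of all genes), with a median log2 change of 0.12. Adrb3 (ENSMUSG00000031489), the main beta-adrenergic receptor of rodent fat, was at 221, 319.8, 325 and 187 CPM at RT and 178, 156, 143 and 137 CPM at TN (-0.78 ± 0.18 SE in log2, adjusted p = 0.00674). Downstream of the receptors, the stimulatory G-protein subunit Gnas fell from 3156 ± 328 to 1729.8 ± 424 CPM (log2 change -0.87, adjusted p = 0.00414). The adenylyl cyclases, which make cyclic AMP, were split: Adcy5 was 1.29 to 3.85 CPM at RT and 6.65 to 23.7 CPM at TN (log2 change 2.34, adjusted p = 0.00224), and Adcy3 went from between 96.5 and 215 CPM to between 38.2 and 95.3 CPM (log2 change -1.07, adjusted p = 0.017). The natriuretic peptide receptors Npr1 (0.98) and Npr3 (0.87) and the immediate early gene Fos (2.99) were also called, all higher. With library totals 10 were called higher and 1 lower, where 19.7% of all genes were higher and 3.17% lower. There the call of Adrb3 was lost (adjusted p = 0.159, and 0.000624 to 0.159 over all its settings). Without TN replicates 2 and 5, 0 members were called lower.

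Heat can also be made by cycles that spend ATP, of creatine or of calcium. Of 14 such genes 2 were higher (14.3%, against 6.64% of all genes) and 2 lower (14.3%, against 8.52%). With library totals 3 were higher and 2 lower, where 19.7% of all genes were higher and 3.17% lower. The creatine transporter Slc6a8 had 17.2, 20.3, 25.1 and 18.4 CPM at RT and 38.7, 46.3, 50.3 and 34.0 CPM at TN (1.06 ± 0.20 SE in log2, adjusted p = 0.00184), and Gamt, which makes creatine, rose from between 1.36 and 3.87 CPM to between 5.66 and 12.6 CPM (log2 change 1.63). Alpl, the phosphatase placed in the mitochondrial creatine cycle, fell from between 35.0 and 47.4 CPM to between 10.6 and 16.1 CPM (-1.70 ± 0.20 SE in log2, adjusted p = 2.26e-05). Ryr2, a calcium release channel, went from 11.1, 11.9, 11.3 and 14.4 CPM to 1.44, 1.05, 0.809 and 0.407 CPM, a 13.1-fold lower mean (-3.71 ± 0.46 SE in log2, adjusted p = 6.56e-05). The muscle-type members Atp2a1, Ckmt2 and Sln ranged with the muscle markers: Atp2a1 was at 50.3, 0.443, 808 and 282 CPM at RT and 1457, 0.331, 0.307 and 97.2 CPM at TN and was not called (adjusted p = 0.935).

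Fatty acid synthesis showed the widest fall of the 22 groups by its median, -1.99 on the log2 scale. Of 18 genes tested, 15 were called lower (83.3%, against 8.52% of all genes) and 1 higher (5.56%, against 6.64%). Fasn (ENSMUSG00000025153), fatty acid synthase, was at 9166, 15515, 13771 and 15669 CPM at RT and 993, 3173, 584 and 854 CPM at TN. The TN libraries were far below the RT libraries, replicate 3 less so (9.66-fold, -3.27 ± 0.60 SE in log2, adjusted p = 0.00238). Elovl6 (ENSMUSG00000041220), which lengthens the product of Fasn, was at 797, 1449.6, 1232 and 1213 CPM at RT and 75.4, 143, 85.4 and 81.2 CPM at TN (-3.61 ± 0.27 SE in log2, adjusted p = 2.13e-07). Me1, a source of NADPH for the pathway, had 618, 1142, 980.1 and 1012 CPM against 156, 124, 87.7 and 112 CPM (-2.97 ± 0.29 SE in log2, adjusted p = 4.18e-06). Scd1, the desaturase that was the most abundant called gene, fell from 58854 ± 14771 CPM to 16105 ± 3166 CPM (SD, n = 4; log2 change -1.87, adjusted p = 2.06e-05).

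Lower in the same way were the enzymes that supply and activate acetyl-CoA, Acly (-2.75), Acss2 (-2.64) and Acaca (-2.41), the citrate carrier Slc25a1 (-2.11), and the desaturases Scd2 (-2.95) and Scd3 (-2.62), whose reads may be shared among close family members. Of the regulators, Mlxipl, the carbohydrate-responsive factor, went from between 317 and 454 CPM to between 123 and 233 CPM (log2 change -1.06, adjusted p = 0.00536). Srebf1, the sterol-regulated factor of lipogenesis, was 204 to 277 CPM at RT and 223 to 404 CPM at TN and was not called (log2 change 0.13, adjusted p = 0.729). The exception was Fads1, a desaturase of polyunsaturated fatty acids, at 23.1, 10.9, 11.2 and 10.4 CPM and 50.0, 21.8, 18.5 and 24.5 CPM (1.05 ± 0.30 SE in log2, adjusted p = 0.0229), overlapping and highest in each group in the library richest in hepatocyte transcripts, RT replicate 9 and TN replicate 2. The call was lost without TN replicate 2 (adjusted p = 0.1) and without RT replicate 10, 14 or 19 (0.0773, 0.0707 and 0.0772; over all its settings 0.00231 to 0.258). Library totals gave 14 lower and 2 higher, where 3.17% of all genes were lower and 19.7% higher. Leaving out TN replicates 2 and 5 gave 11 lower, with Fasn at a log2 change of -2.82 and an adjusted p of 0.0716 (over all its settings 1.48e-05 to 0.0716).

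Sterol synthesis fell with it. Of 21 genes 14 were called lower (66.7%, against 8.52% of all genes) and 0 higher, median log2 change -1.49. Pmvk (ENSMUSG00000027952), a kinase of the mevalonate pathway, was at 119, 146, 84.2 and 121 CPM at RT and 20.3, 21.0, 15.6 and 17.2 CPM at TN (-2.66 ± 0.18 SE in log2, adjusted p = 6.09e-08). Nsdhl (ENSMUSG00000031349), a demethylating enzyme of the later steps, was at 102, 119, 81.4 and 109.5 CPM and 14.9, 21.0, 10.5 and 14.0 CPM (-2.77 ± 0.25 SE in log2, adjusted p = 1.99e-06). Both splits were complete. Insig1, a sterol-sensing regulator, went from between 406 and 747 CPM to between 84.1 and 117 CPM (log2 change -2.47), and Sqle, squalene epoxidase, from between 19.9 and 34.1 CPM to between 2.35 and 4.91 CPM (log2 change -3.01). Hmgcs1, an early enzyme of the pathway, was not called, at 196 to 336 CPM at RT and 149 to 324 CPM at TN (log2 change -0.23, adjusted p = 0.813). Srebf2, the master factor of sterol genes, was not called (log2 change -0.31, adjusted p = 0.143). Library totals gave 11 lower and 1 higher, where 3.17% of all genes were lower and 19.7% higher. Without TN replicates 2 and 5, 11 were lower.

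The promoters of 5 of these sterol genes and of Fasn are printed because these genes fell together. They were chosen among the list members because each holds a CCAAT box, the letters that the factor NF-Y binds and that often lie near sterol-regulated sites. Each window is the 250 bases before the annotated start, from RefSeq on GRCm38.p6, 5′ to 3′ on the strand of the gene. Capitals mark CCAAT on either strand (CCAAT or its reverse complement), and adjoining matches run together.
Insig1 (chr5:28071162-28071411, plus strand): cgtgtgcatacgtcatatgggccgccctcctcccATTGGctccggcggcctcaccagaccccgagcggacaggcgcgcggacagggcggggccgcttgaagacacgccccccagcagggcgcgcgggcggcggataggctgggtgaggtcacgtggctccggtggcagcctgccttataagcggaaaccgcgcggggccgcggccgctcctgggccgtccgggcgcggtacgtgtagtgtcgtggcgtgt
Idi1 (chr13:8885356-8885605, plus strand): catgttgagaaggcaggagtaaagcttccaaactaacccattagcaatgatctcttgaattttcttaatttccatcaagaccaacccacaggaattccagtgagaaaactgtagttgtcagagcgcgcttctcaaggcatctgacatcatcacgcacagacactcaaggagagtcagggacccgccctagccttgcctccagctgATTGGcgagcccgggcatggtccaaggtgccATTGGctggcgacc
Cyp51 (chr5:4104698-4104947, minus strand): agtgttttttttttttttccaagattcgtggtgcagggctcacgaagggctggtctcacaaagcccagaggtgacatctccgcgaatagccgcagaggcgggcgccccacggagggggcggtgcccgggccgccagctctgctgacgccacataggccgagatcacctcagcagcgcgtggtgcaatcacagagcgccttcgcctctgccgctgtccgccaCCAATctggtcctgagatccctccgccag
Lss (chr10:76531355-76531604, plus strand): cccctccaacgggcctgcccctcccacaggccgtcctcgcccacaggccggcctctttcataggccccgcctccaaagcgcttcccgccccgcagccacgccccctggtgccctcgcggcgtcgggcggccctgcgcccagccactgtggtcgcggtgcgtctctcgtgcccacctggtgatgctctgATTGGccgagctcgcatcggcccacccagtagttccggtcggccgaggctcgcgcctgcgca
Mvd (chr8:122443423-122443672, minus strand): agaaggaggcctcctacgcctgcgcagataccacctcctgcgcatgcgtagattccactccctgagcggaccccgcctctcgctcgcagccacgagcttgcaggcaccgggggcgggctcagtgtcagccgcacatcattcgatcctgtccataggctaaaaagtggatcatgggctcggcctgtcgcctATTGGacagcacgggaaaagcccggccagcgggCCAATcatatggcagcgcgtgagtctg
Fasn (chr11:120824548-120824797, minus strand): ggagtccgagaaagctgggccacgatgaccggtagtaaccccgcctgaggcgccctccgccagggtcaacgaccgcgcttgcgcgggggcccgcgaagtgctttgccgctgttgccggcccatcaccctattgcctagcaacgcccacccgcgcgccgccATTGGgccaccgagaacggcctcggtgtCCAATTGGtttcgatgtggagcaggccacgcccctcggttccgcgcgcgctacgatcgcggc

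The CCAAT letters, searched on both strands, were in 15 of the 18 windows of the sterol list (83.3%) and in 11 of the 19 windows of the fatty acid synthesis list (57.9%), against 33.8% of all 32851 windows of the table. Lists that did not fall had high shares as well, 75.0% for cell cycle genes and 66.7% for clock genes. Over all genes called lower the share was 36.2%, and over genes called higher 34.7%. The sterol element TCACNCCAC was in 1 of the 18 sterol windows (5.56%), in 0 of the 14 windows of sterol genes called lower, and in 1.05% of all windows. A match is a description of the letters only. The genes printed fell by 2.47 (Insig1), 1.94 (Idi1), 2.19 (Cyp51), 1.72 (Lss), 1.59 (Mvd) and 3.27 (Fasn) on the log2 scale. Idi1, an isomerase of the pathway, went from 13.5, 40.4, 23.3 and 26.7 CPM to 5.54, 7.72, 6.78 and 6.97 CPM, and Cyp51, the lanosterol demethylase, from 47.6, 104, 54.7 and 50.4 CPM to 14.5, 18.1, 12.4 and 11.2 CPM, without overlap in either.

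Of 21 genes of triglyceride storage and lipolysis 7 were lower (33.3%, against 8.52% of all genes) and 1 higher (4.76%, against 6.64%). The synthetic arm held most of the falls: Agpat2, an acyltransferase of the pathway, was at 1895, 2201, 1689.7 and 1976 CPM at RT and 332, 564, 303 and 518 CPM at TN (-2.18 ± 0.31 SE in log2, adjusted p = 0.000186). Gpd1, which makes the glycerol backbone, went from 7548 ± 1335 to 3175 ± 1243 CPM (log2 change -1.25, adjusted p = 0.00811), and Gpam (-0.98) and Dgat1 (-0.66), acyltransferases at the start and the end of the pathway, were also called lower. Of the lipases, Mgll, which frees the last fatty acid, had 746, 963, 971 and 857 CPM and 504, 529.5, 581 and 648 CPM (-0.64 ± 0.15 SE in log2, adjusted p = 0.00631). Pnpla2 (0.16, adjusted p = 0.599) and Lipe (0.02, adjusted p = 0.967), the adipose triglyceride and hormone-sensitive lipases, overlapped between the groups. The droplet coats split: Plin4 rose from 346, 318, 511 and 363 CPM to 774, 997, 876 and 916 CPM (1.21 ± 0.16 SE in log2, adjusted p = 9.82e-05), while Plin2 went from between 1152 and 1608 CPM to between 346 and 586 CPM (log2 change -1.46). Counts were 5 higher and 3 lower with library totals, which called 19.7% of all genes higher and 3.17% lower. There the list's median turned from -0.17 to 0.21 and the Mgll call was lost (adjusted p = 0.206, and 5.14e-05 to 0.206 over all its settings). Leaving out TN replicates 2 and 5 gave 2 lower, and Gpd1 had a log2 change of -0.91 and an adjusted p of 0.141 (over all its settings 0.000192 to 0.141).

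For uptake and handling of fatty acids 3 of 19 were higher (15.8%, against 6.64% of all genes) and 4 lower (21.1%, against 8.52%), median -0.32. With library totals 5 were higher and 3 lower, where 19.7% of all genes were higher and 3.17% lower, and the median turned to 0.04. Acsl5 (ENSMUSG00000024981), which activates fatty acids to acyl-CoA, was at 517, 925, 455 and 591 CPM at RT and 53.6, 69.2, 45.6 and 62.1 CPM at TN, a 10.8-fold lower mean (-3.43 ± 0.22 SE in log2, adjusted p = 3.21e-08). Fabp5, an intracellular fatty acid carrier, fell from 173, 192, 145 and 181 CPM to 77.4, 36.7, 45.5 and 53.4 CPM (-1.70 ± 0.20 SE in log2, adjusted p = 2.17e-05). Angptl4 (ENSMUSG00000002289), an inhibitor of lipoprotein lipase, rose from 198, 164, 178 and 155 CPM to 498, 429.6, 617 and 629 CPM (1.64 ± 0.25 SE in log2, adjusted p = 0.000234). Apoe (ENSMUSG00000002985), a lipoprotein component made by liver, macrophages and fat, had 527, 384, 267 and 184 CPM at RT and 1771, 1268, 1336 and 2009 CPM at TN (2.23 ± 0.31 SE in log2, adjusted p = 0.000121). Apoe was highest in TN replicates 2 and 5, those richest in hepatocyte markers. TN replicates 3 and 4, with hepatocyte sums of 122 and 325 CPM, had 1268 and 1336 CPM of Apoe. The part of hepatocyte transcripts in the result was not tested. Lpl itself (-0.37, adjusted p = 0.366) and the transporter Cd36 (0.20, adjusted p = 0.48) were not called.

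Fatty acid oxidation was lower in 11 of 30 genes (36.7%, against 8.52% of all genes) and higher in 0, median -0.46. Cpt2, of the carnitine shuttle into mitochondria, was at 509, 610.0, 659.9 and 642 CPM at RT and 159, 259, 219 and 311 CPM at TN (-1.35 ± 0.22 SE in log2, adjusted p = 0.000423). The mitochondrial trifunctional subunit Hadha (-1.15), the very long chain dehydrogenase Acadvl (-0.83) and the flavoprotein reductase Etfdh (-0.92) were called too, while Cpt1b, the entry step, was not (-0.32, adjusted p = 0.437). Library totals gave 4 lower and 1 higher, where 3.17% of all genes were lower and 19.7% higher. Without TN replicates 2 and 5, 4 were lower.

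The citrate cycle had 8 of 20 genes lower (40.0%, against 8.52% of all genes) and 1 higher (5.0%, against 6.64%). Idh3g, a subunit of the NAD-dependent isocitrate dehydrogenase, went from 986, 1032, 963 and 1138 CPM to 421, 679.5, 586 and 567 CPM (-0.87 ± 0.18 SE in log2, adjusted p = 0.00335). Idh2, the NADP-dependent enzyme of the same compartment, went the other way, from 282, 277, 314 and 321 CPM to 388, 603, 519.9 and 510.2 CPM (0.76 ± 0.18 SE in log2, adjusted p = 0.00845), with no overlap in either gene. Suclg2, of succinyl-CoA ligase, fell from between 161 and 202 CPM to between 102 and 124 CPM (log2 change -0.66). With library totals 2 members were called lower, where 3.17% of all genes were. Suclg2 was not called there (adjusted p = 0.17, and 0.000221 to 0.17 over all its settings). Without TN replicates 2 and 5 the number lower was 0, and over all genes 561 were lower, against 1537 in the main fit.

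Nuclear genes of the respiratory chain fell by small amounts in large number, 34 of 51 called lower (66.7%, against 8.52% of all genes) and 0 higher, median -0.65. Cox6a1, of cytochrome oxidase, was at 1574, 1384, 1075 and 1267 CPM at RT and 641, 678, 705 and 694 CPM at TN (-0.96 ± 0.17 SE in log2, adjusted p = 0.000733), and Ndufs4, of complex I, at 432, 360.3, 321 and 418 CPM and 182, 182, 206 and 174 CPM (-1.04 ± 0.18 SE in log2, adjusted p = 0.000872). Neither gene overlapped between the groups, and the TN values were the narrower (SD 27.8 and 14.0 CPM, against 209 and 51.6 CPM at RT). Uqcrq (-1.26) and Uqcr10 (-1.10), of the cytochrome bc1 complex, had the largest falls. With library totals the median was -0.26, with 14 lower and 1 higher, where 3.17% of all genes were lower and 19.7% higher. Without TN replicates 2 and 5, 5 were lower. That smaller set called 561 genes lower in all, against 1537 in the main fit. Transcripts of the mitochondrial genome were not called in either direction by edgeR (0 of 13), while DESeq2, which called 9.33% of all genes higher and 9.73% lower, called 3 of them lower. Their median log2 change was -0.55 (-0.16 with library totals), and 12 of the 13 had a negative change. For 4 of the 13 every TN library lay below every RT library, as for 11.8% of all genes. Mt-Co1 was at 129515, 93981, 74431 and 102056 CPM and 103271, 74707, 75863 and 95405 CPM (mt-Co1 log2 change -0.20, adjusted p = 0.703, and 0.20 with library totals), and mitochondrial transcripts took 22.0 to 33.9% of counts at RT and 22.2 to 28.1% at TN. The mitochondrial ribosomal RNA mt-Rnr1, outside that list, fell from between 3071 and 5843 CPM to between 991 and 2023 CPM (log2 change -1.49, adjusted p = 0.0112).

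**Figure D3:**
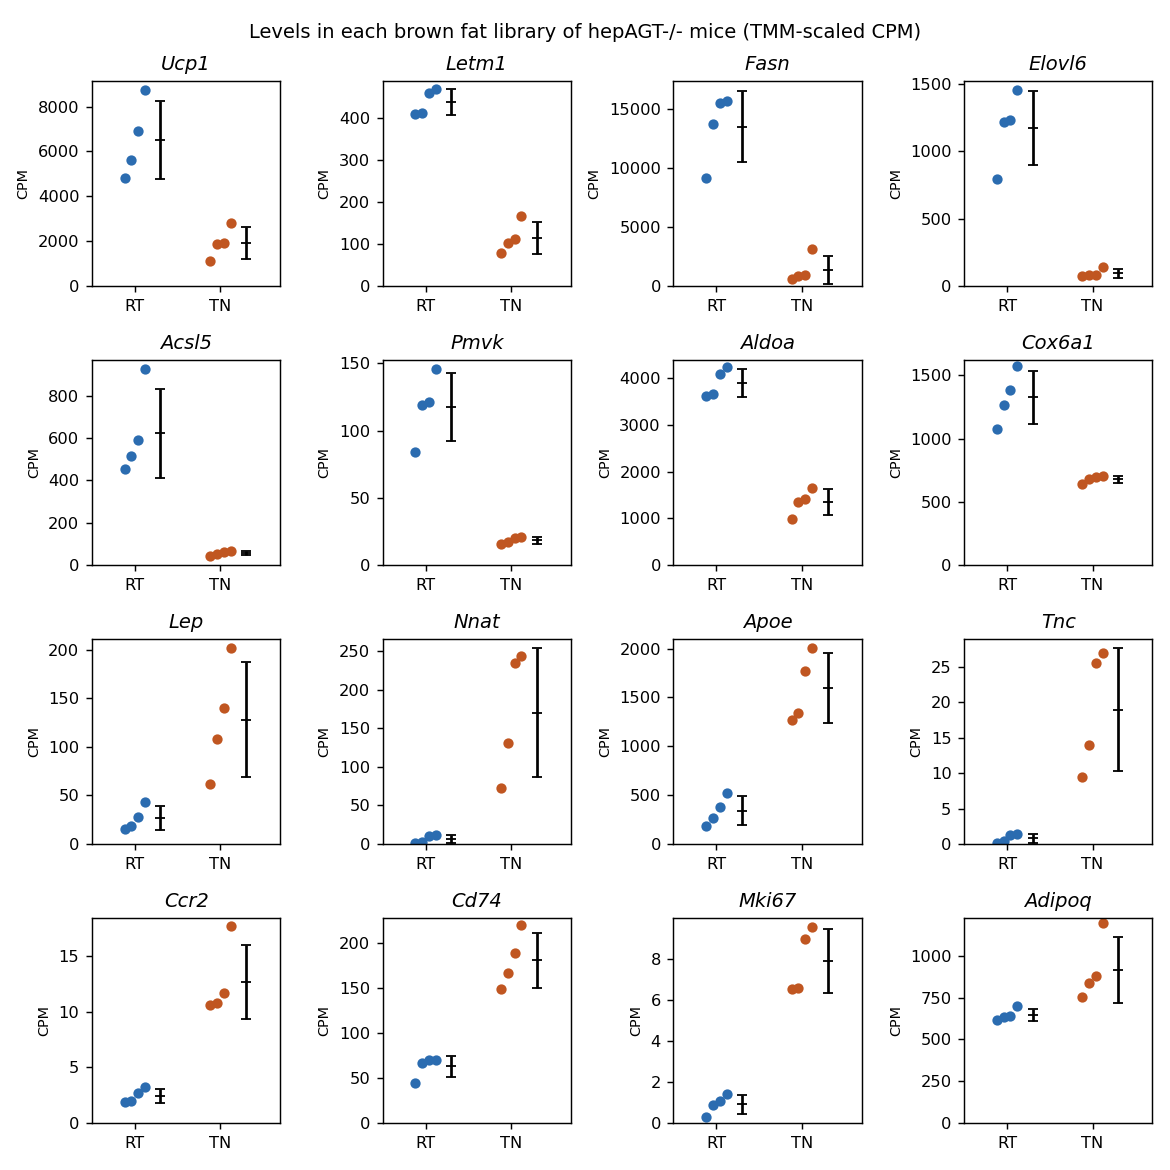
Level in each hepAGT-/- brown fat library (TMM-scaled CPM, linear axis from 0) of 16 genes, RT in blue and TN in orange, points ordered by value, with the mean and SD (n = 4) in black. Ucp1 to Cox6a1 lay lower in all 4 TN libraries and Lep to Mki67 higher; Adipoq, also higher in all 4, was not called.

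Glucose use was lower in 16 of 30 genes (53.3%, against 8.52% of all genes) and higher in 1 (3.33%, against 6.64%), median -0.92. Aldoa (ENSMUSG00000030695), the glycolytic aldolase, was at 3604, 4224, 3661 and 4085 CPM at RT and 1404, 1654, 984 and 1341 CPM at TN (-1.53 ± 0.25 SE in log2, adjusted p = 0.000452). Further along glycolysis Eno1 (-1.45), Pkm (-1.26) and Ldha (-1.11) fell, as did Pdhb (-1.52) of pyruvate dehydrogenase. Of its regulators, the inhibiting kinase Pdk1 went from 109, 176, 158 and 188 CPM to 46.6, 65.4, 58.3 and 56.7 CPM (-1.48 ± 0.16 SE in log2, adjusted p = 8.14e-06). The activating phosphatase Pdp1 rose from between 3.87 and 6.54 CPM to between 8.95 and 14.0 CPM (1.01 ± 0.25 SE in log2, adjusted p = 0.00936). Another inhibiting kinase, the more abundant Pdk4, was at 1606 to 2279 CPM at RT and 1411 to 2486 CPM at TN. It was not called (log2 change -0.01, adjusted p = 0.985). Of glycogen metabolism, the synthase Gys2 fell from 71.3, 107, 89.8 and 94.5 CPM to 13.2, 20.5, 6.92 and 13.5 CPM (-2.74 ± 0.37 SE in log2, adjusted p = 0.000247), and the phosphorylase Pygl had a log2 change of -1.81. The insulin-responsive transporter Slc2a4 (-0.62, adjusted p = 0.0771) and the hexokinase Hk2 (-0.99, adjusted p = 0.124) were not called. Gapdh (-1.95) is uncertain, since its reads may be shared with its many pseudogenes. Library totals gave 13 lower, where 3.17% of all genes were, and 6 were lower without TN replicates 2 and 5.

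Branched-chain amino acid breakdown, another fuel of brown fat, was lower in 5 of 20 genes (25.0%, against 8.52% of all genes) and higher in 1 (5.0%, against 6.64%). Bckdha, of the rate-limiting dehydrogenase, was at 635, 632, 587 and 659.9 CPM at RT and 249, 343, 302 and 322 CPM at TN (-1.05 ± 0.17 SE in log2, adjusted p = 0.000528), and its partner Bckdhb fell from between 123 and 146 CPM to between 75.6 and 89.5 CPM (log2 change -0.71). Ppm1k, the phosphatase that activates this dehydrogenase, was called higher, from 17.3, 14.6, 18.7 and 18.5 CPM to 17.9, 32.2, 25.7 and 33.9 CPM (0.67 ± 0.19 SE in log2, adjusted p = 0.0227), though TN replicate 2 lay within the RT range. Library totals gave 3 higher and 2 lower, where 19.7% of all genes were higher and 3.17% lower. There the call of Bckdhb was lost (adjusted p = 0.0779, and 1.24e-05 to 0.0779 over all its settings). In the set without TN replicates 2 and 5, 1 was lower. Ppm1k was lost when RT replicate 10, TN replicate 3 or TN replicate 5 was left out (adjusted p = 0.0804, 0.058 and 0.0834; over all its settings 0.000734 to 0.0834).

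Of white-fat genes and adipokines 7 of 17 were called higher (41.2%, against 6.64% of all genes) and 1 lower (5.88%, against 8.52%). The other 9 were not called, and the median was 0.96. With library totals 9 were higher and 1 lower, where 19.7% of all genes were higher and 3.17% lower. Lep (ENSMUSG00000059201), leptin, was at 15.8, 19.1, 43.1 and 28.0 CPM at RT and 140.5, 202, 108 and 61.4 CPM at TN, a 4.82-fold higher mean without overlap (2.27 ± 0.37 SE in log2, adjusted p = 0.000831). Nnat, neuronatin, a protein of the endoplasmic reticulum found in white fat, was at 2.99, 11.6, 9.95 and 1.06 CPM and 235, 72.0, 131 and 243 CPM (4.74 ± 1.00 SE in log2, adjusted p = 0.00705). Mest, tied to adipocyte enlargement, had 0.985, 2.42, 1.40 and 0.431 CPM and 28.5, 6.70, 10.5 and 7.32 CPM (3.34 ± 0.67 SE in log2, adjusted p = 0.00493). Cfd, adipsin, went from 244, 219, 233 and 57.4 CPM, lowest in RT replicate 19, to 1238, 705, 590.0 and 1647 CPM (2.47 ± 0.59 SE in log2, adjusted p = 0.0116). Dpt, a matrix protein, rose from between 23.6 and 44.2 CPM to between 103 and 194 CPM (log2 change 2.03), and the adipocyte factor Cebpa by 0.60 (between 469 and 528 CPM at RT and between 617 and 908 CPM at TN).

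Rbp4, the retinol carrier, ran against the list, at 244, 296, 229 and 245 CPM and 131, 25.5, 17.5 and 50.8 CPM (-2.17 ± 0.53 SE in log2, adjusted p = 0.0137), highest at TN in replicates 2 and 5. Rbp4 missed the threshold when only the 8 libraries were fitted (adjusted p = 0.0664; over all its settings 9.59e-05 to 0.0664). Adiponectin (Adipoq) was at 632, 699, 639 and 614 CPM and 876, 837, 752 and 1199 CPM. It was above RT in all 4 TN libraries and was not called (log2 change 0.50, adjusted p = 0.128; 0.88 and adjusted p = 0.00126 with library totals). With TN replicates 2 and 5 left out, 3 list members were higher, with Nnat at a log2 change of 4.01 and an adjusted p of 0.0621 (over all its settings 4.43e-07 to 0.0621) and Cfd at a log2 change of 1.80 and an adjusted p of 0.147 (over all its settings 1.8e-05 to 0.147). Of the position genes of white fat, Hoxc9 and Tcf21 had counts only in RT replicate 10, at 0.242 and 0.0606 CPM, and were not tested. Hoxc8 was at 2.39 to 10.1 CPM at RT and 2.01 to 14.5 CPM at TN and was not called. The 6 white adipocyte markers summed to 39.6 to 111 CPM at RT and 324 to 634 CPM at TN. Of them Lep and Nnat were called. Retn was not, at 12.8 to 52.5 CPM at RT and 25.2 to 151 CPM at TN, overlapping (adjusted p = 0.462).

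In the renin-angiotensin list 1 of 11 genes was lower (9.09%, near the 8.52% of all genes) and 0 higher. The lower one was Ctsd, the lysosomal protease cathepsin D, from between 586 and 705 CPM to between 324 and 380.0 CPM (log2 change -0.89, adjusted p = 0.00672). Agt was not called (log2 change 1.15, adjusted p = 0.622), and its highest libraries, TN replicates 2 and 5 and RT replicate 9, were the 3 with the highest hepatocyte sums. Without TN replicate 2 its log2 change was -0.31. The receptor gene Agtr1a was 6.50 to 7.27 CPM at RT and 5.49 to 13.5 CPM at TN (adjusted p = 0.744), and Ace, the converting enzyme, 15.6 to 21.6 CPM and 15.9 to 31.5 CPM (adjusted p = 0.74). With library totals, which called 19.7% of all genes higher, 4 members were.

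Of matrix genes 20 of 29 were called higher (69.0%, against 6.64% of all genes) and 1 lower (3.45%, against 8.52%), median 1.10. Scaling to library totals gave 24 higher and 1 lower, where 19.7% of all genes were higher and 3.17% lower. Col3a1 (ENSMUSG00000026043), a fibrillar collagen, was at 75.0, 99.9, 87.6 and 147 CPM at RT and 397, 288, 259 and 495 CPM at TN (1.81 ± 0.23 SE in log2, adjusted p = 4.45e-05). Col5a1, which nucleates such fibrils, was at 16.3, 14.7, 13.1 and 18.7 CPM and 46.0, 32.6, 32.1 and 39.7 CPM (1.26 ± 0.16 SE in log2, adjusted p = 4.94e-05). Tnc (ENSMUSG00000028364), the matrix protein tenascin C, was nearly absent at RT, at 1.22, 0.136, 1.47 and 0.431 CPM, and at 25.6, 9.43, 26.9 and 14.0 CPM at TN (23.3-fold, 4.54 ± 0.66 SE in log2, adjusted p = 0.000499). Col1a1 (1.46), the macrophage elastase Mmp12 (4.37) and the matricellular protein Thbs1 (3.06) were higher as well. The cross-linking enzyme Loxl1 fell from 28.9, 40.0, 25.3 and 20.1 CPM to 13.4, 13.7, 10.9 and 11.6 CPM (-1.20 ± 0.21 SE in log2, adjusted p = 0.000962). The fibroblast markers, of which 5 of 6 were called higher and which include some of the same collagens, summed to 173 to 258 CPM at RT and 591 to 1046 CPM at TN; their part in the result was not tested. The count of higher matrix genes was 12 without TN replicates 2 and 5.

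Macrophage and inflammation genes were higher in 18 of 29 (62.1%, against 6.64% of all genes) and lower in 0. Their median of 1.53 was the highest of the 22 lists. Scaling to library totals gave 22 higher, where 19.7% of all genes were. Ccr2 (ENSMUSG00000049103), the receptor of recruited monocytes, was at 1.97, 1.84, 3.23 and 2.65 CPM at RT and 10.8, 10.6, 11.7 and 17.7 CPM at TN (2.39 ± 0.28 SE in log2, adjusted p = 2.4e-05). Its ligand gene Ccl2 was at 0.748, 0.749, 1.76 and 0.265 CPM and 8.56, 3.83, 6.97 and 3.86 CPM (2.72 ± 0.46 SE in log2, adjusted p = 0.000622). The general macrophage genes Adgre1 (1.59) and Lyz2 (1.63), the dendritic and tissue macrophage integrin Itgax (2.48), the lipid-associated receptor Trem2 (1.53) and the cytokines Il1b (2.92) and Tnf (3.32) were called, Tnf with 0 to 0.294 CPM at RT and 0.232 to 1.79 CPM at TN, overlapping. All 8 macrophage markers were called higher, and T cell markers summed to 0.801 to 3.57 CPM at RT and 4.04 to 16.3 CPM at TN; their part in the result was not tested. Without TN replicates 2 and 5, 4 of the 29 were higher, and over all genes 540 were, against 1198 in the main fit.

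Of 20 interferon and antigen presentation genes 13 were higher (65.0%, against 6.64% of all genes) and 0 lower. Scaling to library totals gave 16 higher and 0 lower, where 19.7% of all genes were higher and 3.17% lower. H2-Eb1 (ENSMUSG00000060586), an MHC class II chain, was at 38.3, 34.0, 33.8 and 25.8 CPM at RT and 89.6, 75.2, 91.7 and 138 CPM at TN (1.58 ± 0.21 SE in log2, adjusted p = 7.17e-05). Cd74, the invariant chain of class II, was at 70.0, 69.9, 65.9 and 44.8 CPM and 188, 148, 166 and 219 CPM (1.52 ± 0.20 SE in log2, adjusted p = 8.05e-05). B2m, the shared class I subunit, rose from between 196 and 296 CPM to between 564 and 893 CPM (log2 change 1.49), and the interferon-induced Ifit3 from between 5.01 and 8.26 CPM to between 13.8 and 21.3 CPM (log2 change 1.45). B cell markers, another source of class II, summed to 6.41 to 61.3 CPM at RT and 17.8 to 69.3 CPM at TN, overlapping. Without TN replicates 2 and 5, 10 of the 20 were higher.

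Cell cycle genes were higher in 9 of 22 (40.9%, against 6.64% of all genes) and lower in 0, median 1.21. Scaling to library totals gave 12 higher, where 19.7% of all genes were. Mki67 (ENSMUSG00000031004), a marker of dividing cells, was at 0.272, 1.09, 0.881 and 1.39 CPM at RT and 9.53, 6.59, 8.93 and 6.51 CPM at TN (3.11 ± 0.44 SE in log2, adjusted p = 0.000156). Ccnd1, cyclin D, had 12.9, 10.4, 11.3 and 10.2 CPM and 34.0, 27.4, 47.7 and 23.4 CPM (1.56 ± 0.21 SE in log2, adjusted p = 7.73e-05). Top2a (3.77), Cdk1 (2.30) and Pcna (0.65) were called as well. These are low levels: Mki67 stayed under 10 CPM in every library. Leaving out TN replicates 2 and 5 gave 4 higher.

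Of endothelial and vascular genes 1 of 17 was higher (5.88%, near the 6.64% of all genes) and 0 lower. That gene was Angpt1, a stabiliser of vessels, at 7.68, 9.64, 9.18 and 12.5 CPM at RT and 22.2, 45.3, 29.8 and 20.9 CPM at TN (1.60 ± 0.26 SE in log2, adjusted p = 0.0005). Pecam1 (0.27) and Kdr (-0.26) overlapped between the groups. With library totals 3 were higher, where 19.7% of all genes were. Chaperone and stress genes were higher in 5 of 19 (26.3%, against 6.64% of all genes) and lower in 1 (5.26%, against 8.52%). Xbp1, a factor of the unfolded protein response, was at 39.3, 44.1, 46.5 and 50.1 CPM and 87.1, 64.6, 91.1 and 82.2 CPM (0.85 ± 0.14 SE in log2, adjusted p = 0.000622), and Ddit3, another stress factor, went from between 15.3 and 24.2 CPM to between 30.6 and 36.1 CPM (log2 change 0.67). The mitochondrial chaperone Hspe1 fell from between 167 and 266 CPM to between 119 and 138 CPM (log2 change -0.72), a call lost with library totals (adjusted p = 0.178) and without RT replicate 9 or 10 or TN replicate 2, 3 or 4 (0.0502, 0.105, 0.0699, 0.0678 and 0.0795; over all its settings 0.00932 to 0.178). Library totals gave 8 higher and 0 lower, where 19.7% of all genes were higher and 3.17% lower. Without TN replicates 2 and 5, 2 were higher.

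Clock genes varied within both groups. Arntl, a core activator of the clock, was at 11.2, 12.4, 1.98 and 0.796 CPM at RT and 6.71, 13.2, 2.12 and 1.22 CPM at TN, so that RT replicates 9 and 10 and TN replicates 2 and 3 were high and the other 4 low. Dbp, an output gene of the clock, was at 16.9, 6.51, 102 and 126 CPM and 63.4, 15.8, 74.1 and 70.5 CPM, low in RT replicates 9 and 10 and TN replicate 3. Of 19 clock genes 1 was called, lower at TN (5.26%, against 8.52% of all genes). With library totals 1 was higher and 1 lower, where 19.7% of all genes were higher and 3.17% lower, and the list's median turned from -0.20 to 0.19. The gene called in the main fit was Ciart, a repressor, at 3.09, 2.35, 13.1 and 9.26 CPM and 0.923, 0.689, 2.40 and 1.37 CPM (-2.37 ± 0.64 SE in log2, adjusted p = 0.0206). That call was lost without RT replicate 14 or 19 or TN replicate 2, 3 or 5 (adjusted p = 0.0647, 0.0532, 0.0688, 0.0618 and 0.0553; over all its settings 0.00065 to 0.206). The clock genes were named here after their values were seen, except Ciart.

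**Figure D4:**
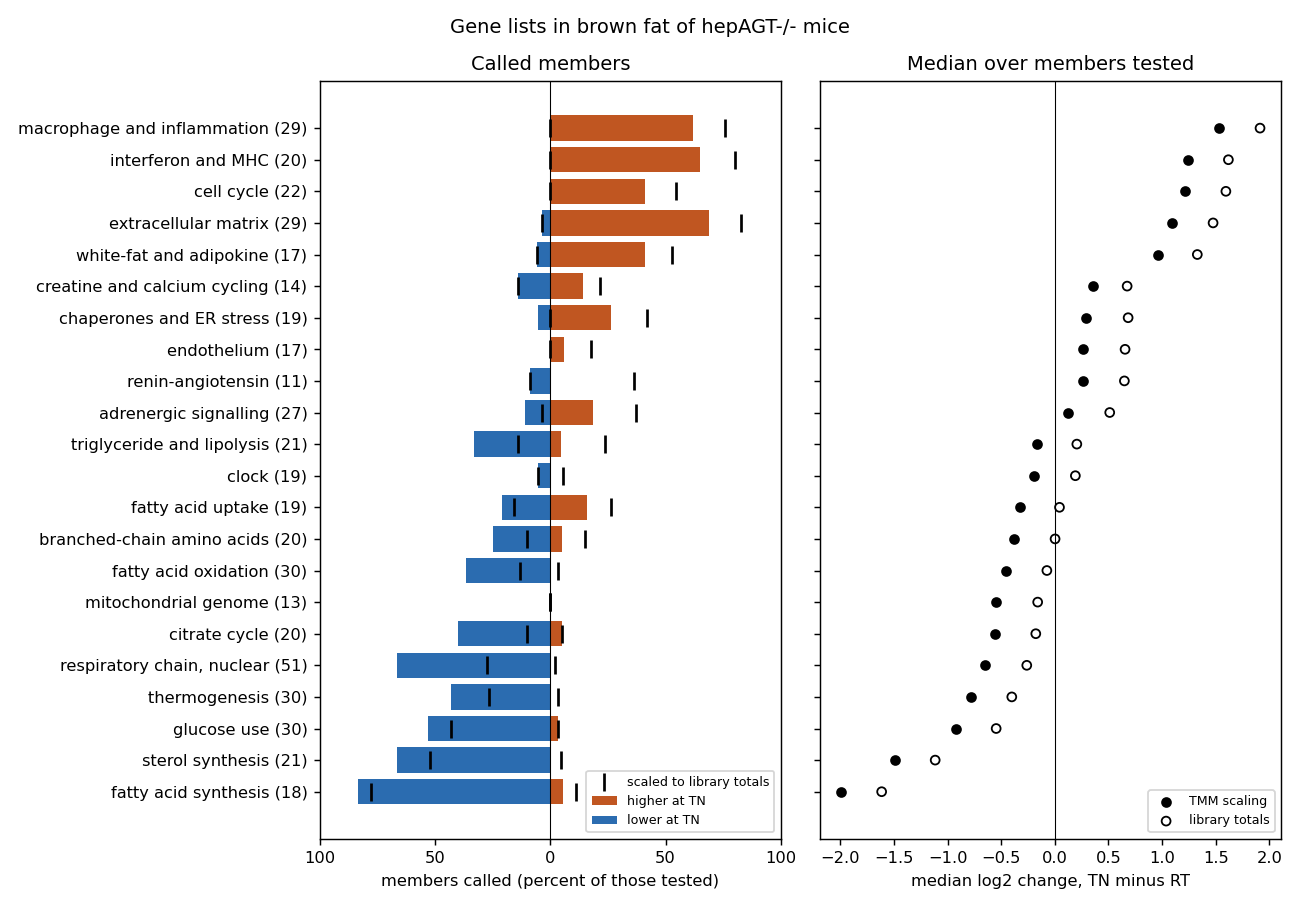
Left, percent of the tested members of 22 gene lists called higher (orange) or lower (blue) at TN, with black ticks for the same counts when libraries were scaled to their totals; the number tested is in brackets. Right, the median log2 change of each list under both scalings: fatty acid synthesis was lowest, at -1.99, and macrophage and inflammation highest, at 1.53.

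Among genes outside these groups, chosen by size of change at a mean of at least 5 CPM, several had roles in other settings. Egr2 (ENSMUSG00000037868), an immediate early transcription factor, was at 0.951, 0.0681, 0.514 and 0.265 CPM at RT and 9.56, 6.29, 19.0 and 8.71 CPM at TN (4.59 ± 0.78 SE in log2, adjusted p = 0.00137). The related early gene Fosb had 27.4, 8.62, 18.9 and 3.32 CPM and 245, 90.6, 333 and 98.9 CPM (3.72 ± 0.89 SE in log2, adjusted p = 0.0138). Both were highest in TN replicates 2 and 4, and without TN replicates 2 and 5 Fosb had a log2 change of 3.87 and an adjusted p of 0.0566 (over all its settings 2.54e-05 to 0.0566). Phgdh (ENSMUSG00000053398), the first enzyme of serine synthesis, rose from 3.67, 2.49, 3.97 and 0.962 CPM to 51.7, 53.3, 52.4 and 66.5 CPM (4.34 ± 0.53 SE in log2, adjusted p = 0.000164), and Psat1, the next enzyme, by 1.28. Eya2, a transcriptional cofactor, rose 20.4-fold, from 0.442, 0.783, 0.367 and 0.531 CPM to 9.43, 11.6, 15.2 and 7.49 CPM (4.35 ± 0.39 SE in log2, adjusted p = 1.99e-06). The Wnt inhibitor Apcdd1 (2.07 ± 1.72 to 32.3 ± 14.1 CPM) and Cdsn (1.85 ± 1.46 to 33.5 ± 6.95 CPM), known from cell adhesion in skin, rose by 3.96 and 4.18.

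The largest falls at that level, after Elovl3, included Hephl1 (-5.29), a copper-dependent oxidase, Adcy10 (-4.94), a soluble adenylyl cyclase, and Rims4 (-4.23), of the vesicle release machinery. Adcy10 was at 7.51, 16.5, 13.7 and 9.82 CPM at RT and 0.205, 0.937, 0.279 and 0.116 CPM at TN, without overlap (-4.94 ± 0.64 SE in log2, adjusted p = 0.00014). Aspg (ENSMUSG00000037686), an asparaginase, was the most evenly split, at 283, 258, 176 and 207 CPM and 15.6, 24.0, 12.2 and 19.6 CPM (-3.70 ± 0.22 SE in log2, adjusted p = 3.21e-08). Ncan, a proteoglycan, fell from between 7.27 and 12.5 CPM to between 0.386 and 0.974 CPM (log2 change -3.89), the fructose transporter Slc2a5 from between 13.4 and 41.5 CPM to between 0.446 and 4.49 CPM (log2 change -3.87), and Ttc25 from between 21.7 and 60.4 CPM to between 1.08 and 7.17 CPM (log2 change -3.61). Adprhl1 was at 26.4, 29.2, 24.8 and 29.0 CPM and 5.51, 0.717, 0.223 and 0.0871 CPM (-4.05 ± 1.02 SE in log2, adjusted p = 0.0176). At TN it was highest in replicate 2 and lowest in replicate 5, whose muscle markers summed to 8409 and 1256 CPM. Replicates 3 and 4, with muscle sums of 2.02 and 2.43 CPM, lay between them. The part of muscle transcripts in the result was not tested. The call of Slc2a5 was lost when RT replicate 10 or TN replicate 2, 4 or 5 was left out (adjusted p = 0.0501, 0.0622, 0.0629 and 0.0584; over all its settings 0.000262 to 0.197), and that of Adprhl1 without TN replicate 3 (adjusted p = 0.0501; over all its settings 0.000393 to 0.0703).

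Of the most abundant genes that rose, Car3, a carbonic anhydrase of adipocytes and muscle, was at 1072, 1099.6, 1103 and 842 CPM at RT and 2776, 2350.4, 1880.4 and 3173 CPM at TN (1.31 ± 0.26 SE in log2, adjusted p = 0.00214). Gpx3, a secreted glutathione peroxidase, was at 1214, 1069.8, 853 and 735 CPM and 2188, 2059.6, 2618 and 3219.7 CPM (1.38 ± 0.23 SE in log2, adjusted p = 0.000501). Gsn, gelsolin, which severs actin filaments, was at 378, 385, 445 and 307 CPM and 1579, 743, 878 and 1414 CPM (1.61 ± 0.26 SE in log2, adjusted p = 0.000514). None of the 3 overlapped.

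Some called genes had no counts in any library of 1 group, 21 that were higher and 12 that were lower at TN. Against a floor of 3 counts per library, Akr1cl, an aldo-keto reductase relative, was at least 61.5-fold higher at TN (4.10, 7.11, 12.6 and 3.31 CPM), and Kntc1 and Melk, both of cell division, at least 7.81-fold and 6.47-fold higher. Rspo4, a Wnt pathway activator, was at 6.32, 5.04, 4.26 and 2.12 CPM at RT and had no counts at TN, at least 50.9-fold lower. The unnamed models Gm8126, Gm20609 and 4930461G14Rik and the gene ccdc198 behaved likewise, at least 6.89-fold higher for the first and at least 17.2-fold, 22.0-fold and 9.13-fold lower for the others. Ccdc198 also had no counts in RT replicate 14, so its groups overlapped, and its call was lost without RT replicate 9 or TN replicate 2 or 4 (adjusted p = 0.0542, 0.0509 and 0.0536; over all its settings 0.00289 to 0.133).

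In brown fat of hepAGT+/+ mice the same test called 5867 genes (32.5%), 2864 higher (15.9%) and 3003 lower (16.7%). Called in the same direction in both genotypes were 2251 genes, 82.3% of those called in hepAGT-/- and 38.4% of those called in hepAGT+/+, and 3 were called in opposite directions. Of the 2735 genes called in hepAGT-/-, 2676 had the same sign in hepAGT+/+. The 2 comparisons share no library. The median size of change over all genes was 0.40 in hepAGT-/- and 0.62 in hepAGT+/+ on the log2 scale.

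Several groups had more called genes in hepAGT+/+: respiratory chain genes were lower in 49 of 51 there and 34 of 51 in hepAGT-/-, citrate cycle genes in 19 and 8 of 20, branched-chain genes in 16 and 5 of 20, and endothelial genes higher in 10 and 1 of 17. Macrophage genes were called higher in 15 of 29 in hepAGT+/+ and 18 in hepAGT-/-. These counts do not show a difference between genotypes, which was tested as the interaction of genotype and temperature. By edgeR 0 genes were called for it, with 1832 at an unadjusted p under 0.05 and a lowest adjusted p of 0.383, while DESeq2 called 21. Leaving out hepAGT+/+ RT replicate 12, hepAGT-/- TN replicate 2 or hepAGT+/+ TN replicate 24 gave 21, 3 and 1 genes.

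Side by side, Ucp1 changed by -1.76 in hepAGT-/- and -1.86 in hepAGT+/+, Fasn by -3.27 and -3.79, Pmvk by -2.66 and -2.54, Tnc by 4.54 and 5.84, and Lep by 2.27 and 1.11 on the log2 scale. Dio2 was -2.34 in hepAGT-/- and 0.06 in hepAGT+/+, a difference that was not called (adjusted p = 0.517). The hepAGT+/+ value is imprecise: Dio2 was at 60.6 ± 14.8 CPM at RT and 63.1 ± 87.1 CPM at TN there (SD, n = 4), with an SD at TN above the mean. The 5 genes with the lowest p for the interaction, none called, were Filip1l, Osbpl1a, St8sia6, Itpka and 6530402F18Rik. Filip1l had 16.5 ± 1.58 CPM at RT and 21.4 ± 7.78 CPM at TN in hepAGT-/- (log2 change 0.37), against a log2 change of 1.99 in hepAGT+/+ (interaction -1.62, adjusted p = 0.383). St8sia6, a sialyltransferase, had changes of -0.80 and 1.32, Osbpl1a, an oxysterol-binding protein relative, 0.30 and -0.62, and Itpka, an inositol phosphate kinase, 0.81 and -0.84. The hepAGT-/- change of Itpka was called (adjusted p = 0.0288), but not without RT replicate 9, 10 or 14 or TN replicate 3 or 5 (0.053, 0.0844, 0.085, 0.0798 and 0.0887; over all its settings 0.00406 to 0.0887). 6530402F18Rik fell by 1.11 in hepAGT-/- and had 0.11 in hepAGT+/+.

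**Figure D5:**
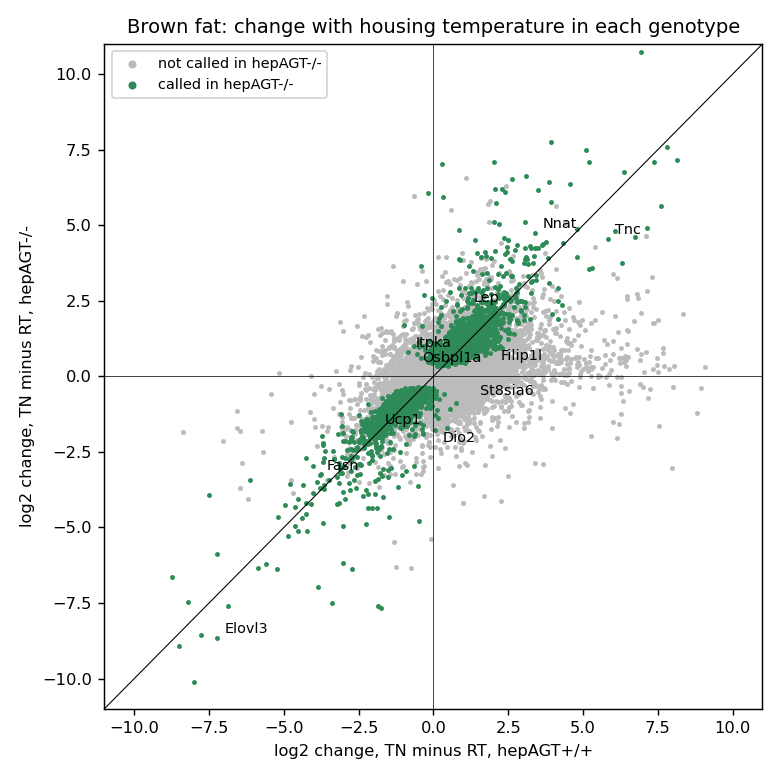
Log2 change (TN minus RT) of each of 18032 genes in hepAGT-/- (vertical) against hepAGT+/+ brown fat (horizontal), genes called in hepAGT-/- in green and the diagonal marking equal change. Most green points lie in the quadrants of equal sign (2676 of 2735); Dio2 and the named interaction genes lie off the diagonal, though no gene was called for the difference by edgeR.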

How the data were processed

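The authors deposited 1 table of raw counts per gene, with Ensembl IDs and names. Libraries were made with NEBNext Ultra kits and sequenced paired-end, per the labels' protocols. The submitters' processing notes name fastp, STAR 2.6.1d, featureCounts 1.5.0-p3 and GRCm38/mm10, with no order or settings; some gene IDs are newer than that build's annotation, so no coordinates are given for counts, and the strand setting is not given in the sources used here. Titles name biological replicates and no source says more of the animals behind them.

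The 16 brown fat libraries were fitted together in edgeR 4.0.16 (R 4.3.3): TMM, genes kept by filterByExpr at a minimum count of 10, 4 group means, robust quasi-likelihood test, Benjamini-Hochberg adjustment over all 18032 genes, threshold 0.05. CPM in the text are TMM-scaled; marker sums use library totals. The fit was tested on simulated data. It recovered 18 of 50 genes set 2-fold higher at TN, 13 of 50 set 2-fold lower, 27 of 50 set 4-fold higher and 34 of 50 set 4-fold lower. It made 5 false calls among 17373 genes, and most 2-fold changes were missed there. Only these few genes were changed in the simulation, against 2735 called in the real data. The adjusted p depends on that number, so the shares recovered do not give the power of the comparison reported here. DESeq2 1.42.0, RLE scaling, other filters, the 8 libraries alone and each library left out were tried as alternatives.

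The members and lists were chosen with earlier results of these data known. Genes were named by rule: 10 fixed genes, up to 10 per direction by size of change at a mean of at least 5 CPM, up to 6 per direction by level, up to 2 per list and direction by adjusted p, up to 4 per direction with no counts in 1 group, and the lowest 5 for the genotype difference. Other list members were named after their values were seen, and a few genes that met the rule are not reported here. Promoter windows came from RefSeq GRCm38.p6.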

Additional observations from a re-analysis of the deposited data

Results flagged for a closer look

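In 17 of 226 groups of 4 libraries (7.52%) 1 library stood far from the other 3. The cutoff used gives about 1 in 20 for independent, normally distributed values. These groups share libraries and most genes were named by their results, so the share found cannot be set against that rate. At RT the groups with such a library were Agt (4.28 CPM) and Fads1 (23.1 CPM), both high in replicate 9, Elovl3 (666 CPM), high in replicate 10, and Car3 (842 CPM), Cfd (57.4 CPM) and Cd74 (44.8 CPM), all low in replicate 19. The summed adipocyte markers were high in RT replicate 14 (11221 CPM).

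At TN replicate 2 was high in Apcdd1 (53.4 CPM), Adprhl1 (5.51 CPM) and Gamt (12.6 CPM), and in the summed markers of skeletal muscle (8409 CPM) and of neutrophils and red blood cells (826 CPM). Replicate 3 was high in the lipogenic genes Fasn (3173 CPM) and Elovl6 (143 CPM) and in Ttc25 (7.17 CPM). Phgdh (66.5 CPM) and Ccr2 (17.7 CPM) were high in replicate 5.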

How the results depend on the processing

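The 2735 genes called in hepAGT-/- brown fat became 4120 with library totals (3548 higher, 572 lower) and 1101 without TN replicates 2 and 5 (540 higher, 561 lower), a set chosen after seeing the data that leaves 2 TN libraries. Leaving out 1 library at a time gave 1920 to 2614 calls, with 855 to 1209 higher and 951 to 1468 lower, the 951 without TN replicate 4. RLE scaling gave 2689, a 1 CPM filter 2860, no filter 2305, the 8 libraries alone 2829 and DESeq2 3436. In hepAGT+/+ library totals gave 6782 higher and 995 lower, and leaving out 1 library 4468 to 6685 calls. For the genotype difference the count was 0, but 21 by DESeq2 and 0 to 21 with 1 library left out (21 without hepAGT+/+ RT replicate 12, 3 without hepAGT-/- TN replicate 2, 1 without hepAGT+/+ TN replicate 24). The cause was not tested.

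Of 89 named genes that were called, 65 were called the same way under every alternative run for them and 80 without any 1 library. Signs turned for Prdm16 (0.30) and mt-Co1 (0.20) with library totals, for Agt (-0.31) and Prdm16 (0.05) without TN replicate 2, and for Agt (-1.65) and Prdm16 (0.10) without TN replicates 2 and 5, none of them called; with 1 library left out Agt lay between -0.31 and 3.46, and Prdm16 between -0.16 and 0.05. Without those 2 libraries the calls of Gnas (adjusted p = 0.0744), Ctsd (0.0783), Idh3g (0.0828) and Pdp1 (0.0693) were also lost. No paired analysis was possible because the RT and TN groups share no replicate numbers. The 4 libraries a group limit the precision, so genes that were not called may still differ.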

Other observations

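A gene with the identifier ENSMUSG00000119584, for which the table gives no name, was at 859 and 744 CPM in TN replicates 3 and 5 and between 23750 and 34921 CPM in the other 6 hepAGT-/- brown fat libraries. Both levels occurred at TN, so the gene did not separate the temperatures.

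The summed Schwann cell markers were 147 to 214 CPM at RT and 107 to 191 CPM at TN, and the summed endothelial markers 421 to 863 CPM and 665 to 1155 CPM, overlapping in both.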
